A study of Rattus norvegicus with 12 samples.

Results

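Adrenergic receptors are the cell-surface receptors for noradrenaline and adrenaline, and 7 of their genes were followed in the central nucleus of the amygdala (CeA) of alcohol-exposed rats. The genes are *Adra1a*, *Adra1b*, *Adra1d*, *Adra2a*, *Adra2b*, *Adra2c* and *Adrb1*. They were taken by name from the table of 37209 genes. All 7 passed the filter on low counts that left 20944 genes for testing. RNA came from tissue punches of the CeA of wild type male Sprague Dawley rats aged 14 to 16 weeks, with 1 library per rat. The 6 rats of the chronic intermittent ethanol (CIE) group had breathed ethanol vapor in daily cycles for several weeks and were killed straight after the last vapor session, while still intoxicated. The 6 Control rats breathed air throughout and were killed straight after this exposure ended. The comparison asks how receptor expression in this nucleus differed after long vapor exposure, and it holds no rats in withdrawal, no females and no rats that drank by choice.

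Noradrenaline reaches the CeA along axons from brainstem cell groups, and its release there rises with stress. Receptors of the alpha1 kind act through the G protein Gq and phospholipase C and mostly excite the cells that carry them. Receptors of the alpha2 kind act through Gi and Go, lower cyclic AMP and, on noradrenergic axon endings, restrain further release, while beta receptors act through Gs and raise cyclic AMP. The cell bodies of these axons lie outside the CeA, so receptors on their endings are made from mRNA that a CeA punch largely misses.

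Total counts lay between 61978486 and 78441691 in the CIE group and between 39082548 and 95647601 in the Control group. Libraries of the same group differed from each other by no less than 17.5 times the Poisson variance, so none was a copy of another in its group. Expression is given as CPM, a gene's counts relative to the size of its library, after TMM normalization for library composition. CPM does not correct for transcript length, so the values of 1 gene are compared between rats and the genes are not ranked against each other. Genes that CeA neurons express were present in every rat, with *Prkcd* at no fewer than 1289 counts, *Sst* at no fewer than 7992 and *Crh* at no fewer than 289. The summed CPM of the central amygdala neuron markers differed between rats, from 541 to 1638 in the CIE group and from 696 to 2022 in the Control group. Presence of these genes therefore does not show that the CeA was sampled alike in every rat. Of the noradrenergic neuron markers, *Dbh*, *Slc6a2* and *Phox2a* had at most 17 counts in any rat, whereas *Th* had 96 to 513.

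The regions just before the transcription start sites are shown for the alpha2 genes, since this class held unlike patterns across rats: *Adra2b* and *Adra2c* varied together and *Adra2a* did not follow them. The sequences are from RefSeq on build GRCr8, run 5′ to 3′ on the gene's strand and end at the base before the start site. They cover chr1:263066530-263066779 (plus strand) for *Adra2a*, chr3:135038231-135038480 (plus strand) for *Adra2b* and chr14:79697477-79697726 (minus strand) for *Adra2c*. Capitals mark the GC box GGGCGG on either strand.
Adra2a: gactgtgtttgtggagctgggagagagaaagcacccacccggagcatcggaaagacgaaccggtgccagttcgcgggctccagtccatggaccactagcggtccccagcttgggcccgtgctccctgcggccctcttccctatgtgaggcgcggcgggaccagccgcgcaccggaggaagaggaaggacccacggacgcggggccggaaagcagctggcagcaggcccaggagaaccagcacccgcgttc
Adra2b: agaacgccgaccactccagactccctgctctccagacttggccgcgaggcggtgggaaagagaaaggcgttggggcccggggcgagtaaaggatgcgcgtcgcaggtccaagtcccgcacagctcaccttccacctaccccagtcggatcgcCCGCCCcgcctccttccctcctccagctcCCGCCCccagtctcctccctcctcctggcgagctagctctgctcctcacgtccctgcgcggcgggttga
Adra2c: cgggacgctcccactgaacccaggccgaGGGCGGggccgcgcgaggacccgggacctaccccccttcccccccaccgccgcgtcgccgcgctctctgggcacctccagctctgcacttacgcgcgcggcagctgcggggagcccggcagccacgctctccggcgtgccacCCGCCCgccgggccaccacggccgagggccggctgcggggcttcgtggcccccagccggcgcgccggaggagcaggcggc
The GC box occurred at 2 places in the *Adra2b* window, at 2 places in the *Adra2c* window and at 0 places in the *Adra2a* window. Among 33469 promoters of the same length, 30.5% held at least 1 GC box. Guanine and cytosine made up 67.6% of the *Adra2a* window, 68.0% of that of *Adra2b* and 80.4% of that of *Adra2c*, against a median of 51.2% over all promoters. The share of promoters with a GC box was not matched for this content. Of the other receptors, *Adra1b*, *Adra1d* and *Adrb1* had 0 GC boxes, and *Adrb1* also varied together with *Adra2b* and *Adra2c*. The half-site TGACG of cyclic AMP response elements was found once, in the *Adrb1* window, and in 18.2% of all promoters, and TATAAA in 0 of the 6 windows and in 12.9% of all promoters. No entry was found for *Adra1a*. These are matches of letters and not known binding sites, and a relation between them and the patterns across rats was not tested.

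No difference between the CIE and Control groups was detected for any of the 7 receptors. In edgeR's quasi-likelihood F test 0 of 7 passed a 5% false discovery rate (FDR, Benjamini-Hochberg over all 20944 genes), where 0.363% of all genes did, and the lowest FDR was 0.682. At a nominal p value below 0.05, 0 of 7 receptors passed against 8.31% of all genes. The CIE and Control values overlapped in all 7, whereas 0.893% of all genes had groups that did not overlap. DESeq2 also placed 0 receptors below 5% FDR and 0 below a nominal p of 0.05. Of the log2 fold changes, 5 were below 0 and 2 above, with a median of -0.05 against 0.00 over all genes tested.

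**Figure D1:**
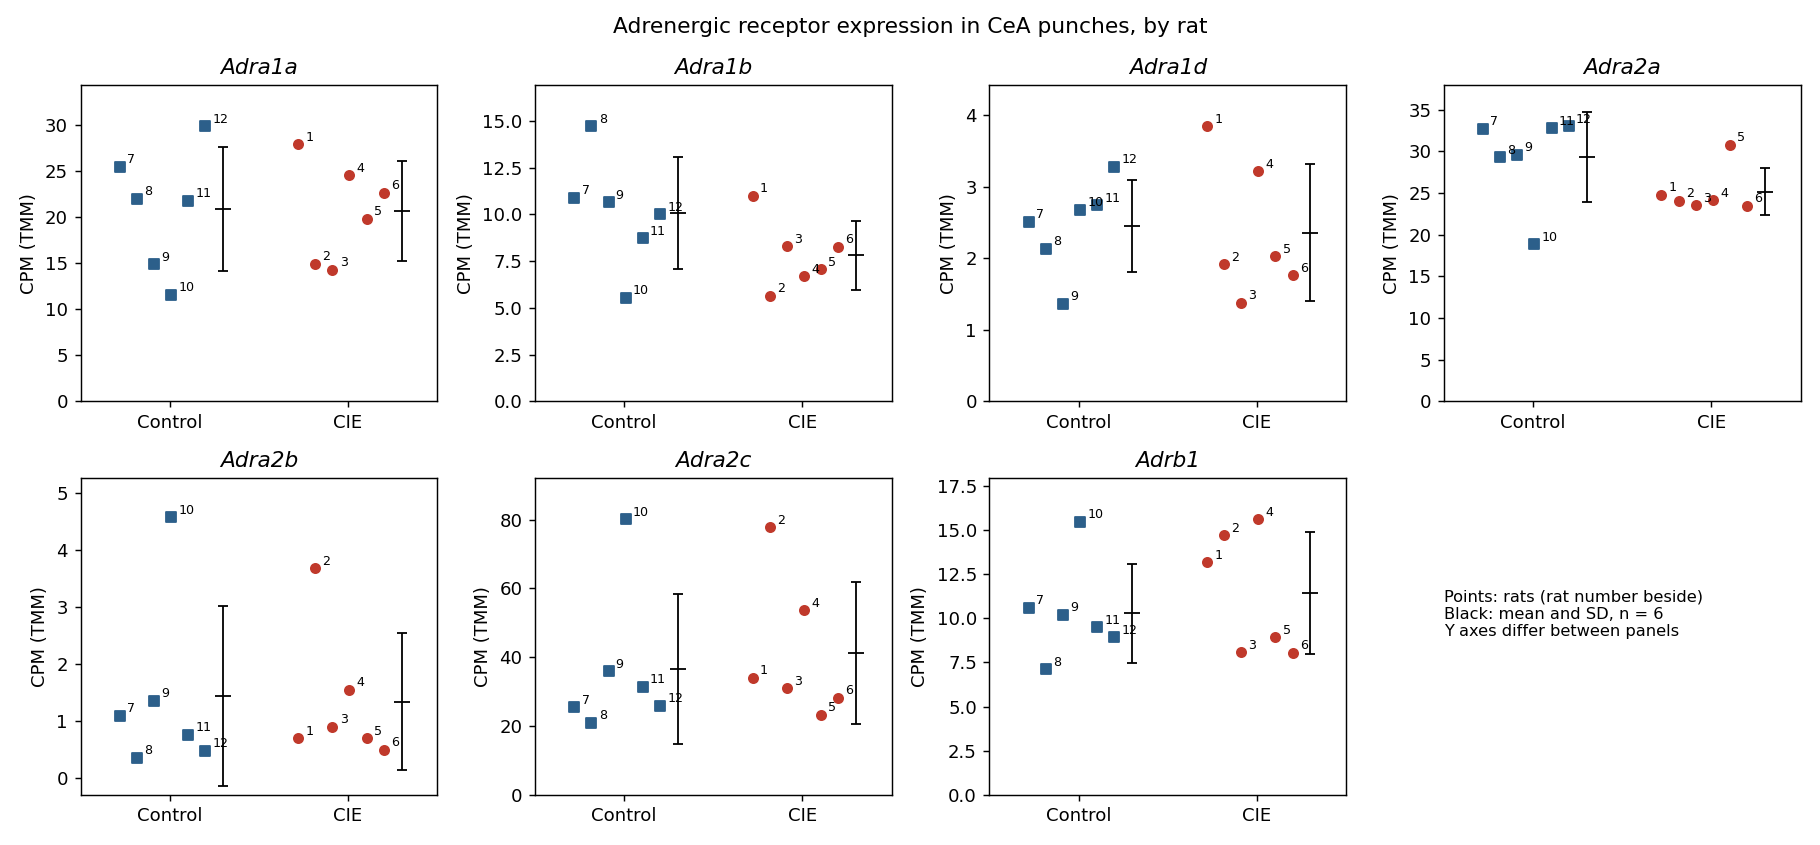
TMM-normalized CPM of the 7 receptors in each rat, with Control rats as blue squares, CIE rats as red circles and the rat number beside each point; black marks are the mean and SD of 6 rats, and the y axes differ. The groups overlap in every panel, and rats 2, 4 and 10 hold the 3 highest values of *Adra2b*, *Adra2c* and *Adrb1*.

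Among the alpha1 receptors, *Adra1a* had a lowest value of 14.3, a median of 21.2 and a highest value of 27.8 CPM in CIE rats, and 11.5, 21.9 and 29.8 CPM in Control rats. The group means were 20.6 ± 5.39 and 20.9 ± 6.72 CPM (SD, n = 6 each), a log2 fold change of -0.02 (SE 0.22, edgeR FDR 0.989). The 95% interval ran from -0.49 to 0.46, and changes within it remain compatible with these data. 

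*Adra1b*, the alpha1 subtype with the lowest fold change, ranged from 5.65 to 10.98 CPM (median 7.65) in CIE rats, while Control rats spanned 5.53 to 14.7 CPM (median 10.3). The CIE median lay below the Control median, but Control rat 10 was below all CIE rats. This gave a log2 fold change of -0.37 (95% interval -0.80 to 0.07, SE 0.20), with edgeR's nominal p at 0.0917 and FDR at 0.685. An exact permutation test of the difference in mean CPM over every division of the rats into 6 and 6, two-sided, gave p = 0.141. The fold change stayed below 0 with each rat left out in turn, between -0.49 and -0.22, and FDR stayed at 0.306 or above.

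*Adra1d*, the third alpha1 subtype, had low counts, between 89 and 250 per rat. It lay between 1.38 and 3.84 CPM (median 1.97) in CIE rats, while Control rats spanned 1.37 to 3.28 CPM (median 2.60). The highest value of all was that of CIE rat 1 and the lowest that of Control rat 9. CIE against Control gave -0.05 on the log2 scale (SE 0.26, 95% interval -0.62 to 0.51, edgeR FDR 0.972).

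Among the alpha2 receptors, *Adra2a* encodes the subtype best known as the autoreceptor of noradrenergic endings and as the target of clonidine and guanfacine. It lay between 23.5 and 30.8 CPM (median 24.1) in CIE rats, while Control rats spanned 18.9 to 33.0 CPM (median 31.2). In the CIE group 5 rats fell within 23.5 to 24.8 CPM and in the Control group 5 rats within 29.3 to 33.0 CPM. CIE rat 5, at 30.8 CPM, lay within the upper Control values, and Control rat 10, at 18.9 CPM, lay below every CIE rat. The means were 25.1 ± 2.82 and 29.4 ± 5.41 CPM (SD, n = 6 each). On the log2 scale CIE was lower by sign, at -0.22 (95% interval -0.49 to 0.04, SE 0.12, FDR 0.682 and nominal p 0.0894 in edgeR), and the exact permutation test gave p = 0.110. Without Control rat 10 this value was -0.32 (SE 0.08), and edgeR's FDR was 0.145 at a nominal p of 0.00148. That was the lowest value on omission of a single rat, and the highest was -0.19, without Control rat 12 (nominal p 0.171 in edgeR). Omission of CIE rat 5 gave -0.29 (nominal p 0.0329, FDR 0.530 in edgeR). Whichever other rat was omitted, edgeR's nominal p was 0.122 or above.

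*Adra2b* was the scarcest receptor in counts, with 29 to 272 per rat. It ranged from 0.493 to 3.68 CPM (median 0.794) in CIE rats, while Control rats spanned 0.354 to 4.58 CPM (median 0.920). CIE rat 2 and Control rat 10 stood far above the other rats of their groups. The highest rat was 13.0 times the lowest, while the counting error at the lowest count was 18.6%. The log2 fold change was -0.10 (SE 0.63, edgeR FDR 0.979), and its 95% interval ran from -1.46 to 1.25, the widest of the 7. It moved from -0.73 without CIE rat 2 to 0.73 without Control rat 10.

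*Adra2c*, the alpha2 subtype that is abundant in the striatum, lay between 23.3 and 77.7 CPM (median 32.5) in CIE rats, while Control rats spanned 21.0 to 80.0 CPM (median 28.7). Control rat 10 was highest, followed by CIE rat 2 and CIE rat 4 with 53.6 CPM, and the other 9 rats lay at or below 35.8 CPM. The estimated log2 difference was 0.17 (SE 0.35, 95% interval -0.57 to 0.92, edgeR FDR 0.934). It was -0.11 without CIE rat 2 and 0.57 without Control rat 10. The ratio of *Adra2c* to *Adra2a* counts within a rat, which does not depend on library size, was between 0.715 and 1.37 in the 9 rats and 2.22, 3.23 and 4.25 in rats 4, 2 and 10.

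*Adrb1*, the beta1 receptor that raises cyclic AMP and is blocked by propranolol, lay between 8.05 and 15.6 CPM (median 11.1) in CIE rats, while Control rats spanned 7.10 to 15.5 CPM (median 9.84). On the log2 scale the difference was 0.15 (SE 0.21, 95% interval -0.30 to 0.60, edgeR FDR 0.900). CIE rats 1, 2 and 4 were at 13.2 to 15.6 CPM and CIE rats 3, 5 and 6 at 8.05 to 8.93 CPM, so CIE rats differed among themselves by more than the group means did. Of the beta receptors that were not followed here, *Adrb3* had at most 10 counts in any rat and was not tested.

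**Figure D2:**
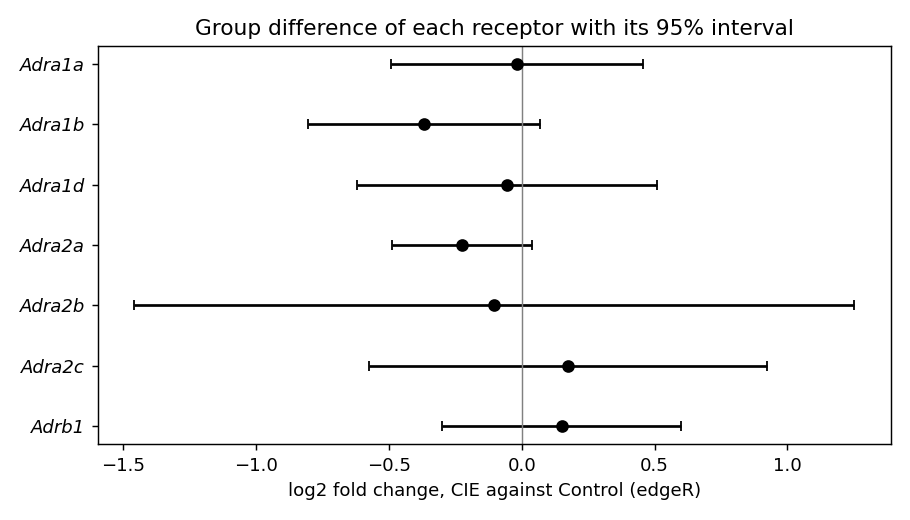
Log2 fold change of each receptor, CIE against Control, from the edgeR fit on 6 rats per group; points are estimates and bars 95% intervals. Every interval includes 0, and the widest is that of *Adra2b*, from -1.46 to 1.25.

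The receptors varied more between rats of the same group than most genes did. The coefficient of variation within groups was 102% for *Adra2b*, 54.7% for *Adra2c*, 33.9% for *Adra1d*, 29.3% for *Adra1a*, 29.1% for *Adrb1*, 27.8% for *Adra1b* and 15.8% for *Adra2a*. The median over 17531 genes with at least 50 counts per rat on average was 13.6%. For *Adra2b* 99.6% and for *Adra2c* 97.8% of these genes varied less. For *Adra2a* this share was 58.9%, so its spread was close to that of a typical gene. The counting error at the lowest count was 2.87% for *Adra2c* and at most 10.6% for the other receptors except *Adra2b*.

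This variation was shared between receptors. Over the 12 rats, *Adra2b* and *Adra2c* correlated in log2 CPM with Pearson's r = 0.926 (permutation p = 0.00012, adjusted over 21 receptor pairs 0.00252) and Spearman's rho = 0.832 (permutation p = 0.00134, adjusted 0.0146). *Adrb1* correlated with *Adra2c* (r = 0.862, permutation p = 0.00036, adjusted 0.00378; rho = 0.776, permutation p = 0.00458, adjusted 0.0321) and with *Adra2b* (r = 0.817, permutation p = 0.00104, adjusted 0.00728; rho = 0.832, permutation p = 0.00139, adjusted 0.0146). Without rats 10 and 2, the rats farthest from the median of the first gene, r was 0.748 for *Adra2b* with *Adra2c*, 0.807 for *Adra2c* with *Adrb1* and 0.697 for *Adra2b* with *Adrb1*. Without rats 2, 4 and 10 these values were 0.622, 0.592 and 0.535. *Adra2a* ran the other way, with r = -0.712 against *Adra2c* (permutation p = 0.00862, adjusted 0.0302; rho = -0.510, permutation p = 0.0936, adjusted 0.199), and r was -0.338 without rats 2, 4 and 10, and -0.522 without rats 10 and 12, so this relation rests on a few rats. *Adra1b* likewise had r = -0.770 against *Adra2c* (permutation p = 0.0027, adjusted 0.0142; rho = -0.573, permutation p = 0.0547, adjusted 0.192), -0.623 without rats 8 and 10, and -0.185 without rats 2, 4 and 10. In all, 7 of 21 pairs passed 5% by Pearson's r and 3 of 21 by Spearman's rho.

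*Adra2b*, *Adra2c* and *Adrb1* followed the markers of striatal projection neurons, the main cell type of the neighbouring striatum. The marker score is the mean log2 CPM of 10 genes such as *Drd1*, *Drd2*, *Adora2a* and *Ppp1r1b*, each relative to its own mean over the rats. All 10 genes were detected in every rat, and their summed CPM ranged from 543 to 3715 in CIE rats (median 744), while Control rats spanned 299 to 4120 (median 575). Rats 10, 2 and 4 had the highest sums, at 4120, 3715 and 1708 CPM, against 299 to 966 CPM in the other 9 rats. Central amygdala neurons are relatives of striatal neurons and express some of the same genes. Whether these punches held striatal tissue was not tested, and more cells of a type cannot be told apart from more RNA per cell in bulk tissue.

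Over the 12 rats, *Adra2c* correlated with the striatal score at r = 0.981 and rho = 0.958, both with a permutation p of 1e-05, the smallest that the permutations can give, and 0.00084 after adjustment over 84 receptor and list pairs. *Adra2b* had r = 0.965 (permutation p = 2e-05, adjusted 0.00084) and rho = 0.909 (permutation p = 9e-05, adjusted 0.00378). *Adrb1* had r = 0.838 (permutation p = 0.00067, adjusted 0.0188) and rho = 0.748 (permutation p = 0.00721, adjusted 0.202). Without rats 10 and 2, r was 0.935 for *Adra2c*, 0.882 for *Adra2b* and 0.748 for *Adrb1*. In the 9 rats that remain when rat 4 is also left out, r was 0.857, 0.847 and 0.494.

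The relation was present in both groups. Within the CIE group r was 0.984 for *Adra2c* (exact permutation p = 0.00417) and 0.981 for *Adra2b* (exact permutation p = 0.00417). Within the Control group it was 0.985 and 0.979 (both exact permutation p = 0.00278). The r of *Adrb1* was 0.748 among CIE rats (exact permutation p = 0.0736), against 0.946 among Control rats (exact permutation p = 0.00556).

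**Figure D3:**
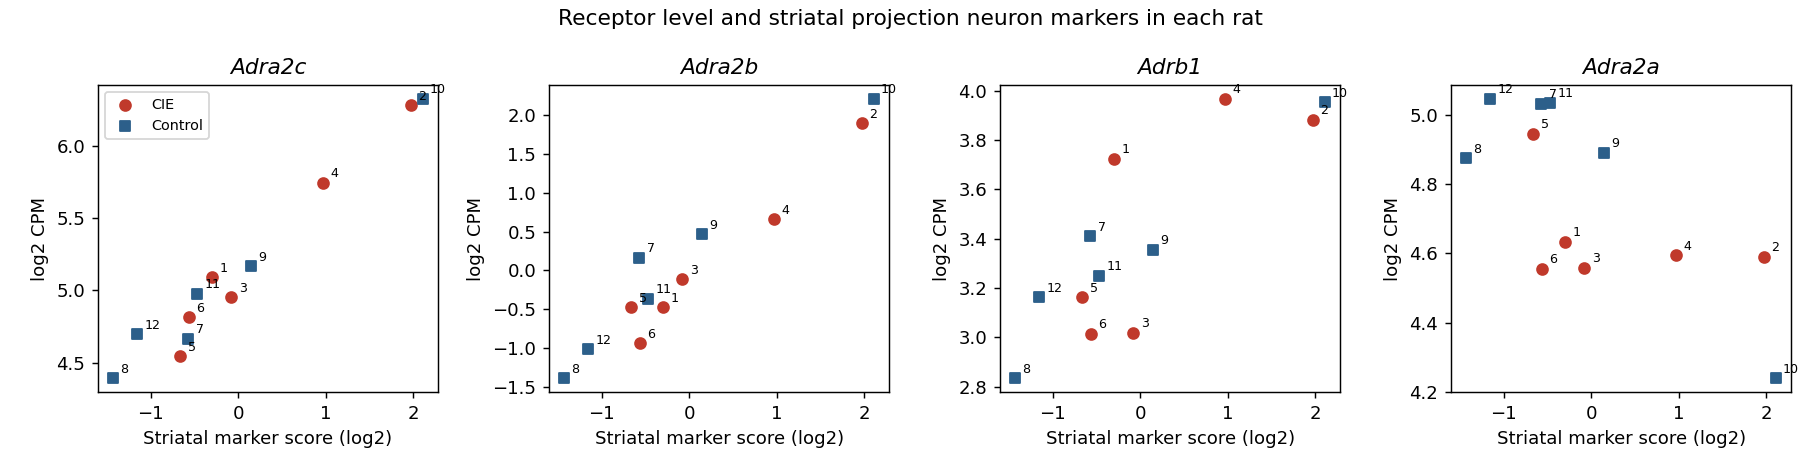
Log2 CPM of *Adra2c*, *Adra2b*, *Adrb1* and *Adra2a* against the striatal projection neuron marker score of the same rat, with CIE rats as red circles, Control rats as blue squares and rat numbers beside the points. *Adra2c* and *Adra2b* rise with the score in both groups, and *Adra2a* is lowest in rat 10, which has the highest score.

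*Adra1b* was the only receptor whose negative relation to the striatal score passed the adjustment (r = -0.813, permutation p = 0.00097, adjusted 0.0204; rho = -0.629, permutation p = 0.0315, adjusted 0.367). Without rats 10 and 2 its r was -0.598, and without rats 2, 4 and 10 it was -0.394. *Adra2a* (r = -0.724, permutation p = 0.00691, adjusted 0.116; rho = -0.622, permutation p = 0.0349, adjusted 0.367) and *Adra1a* (r = -0.669, permutation p = 0.0178, adjusted 0.196; rho = -0.552, permutation p = 0.0665, adjusted 0.508) did not pass, and *Adra1d* had r = -0.03 (permutation p = 0.937, adjusted 0.973; rho = -0.126, permutation p = 0.700, adjusted 0.992). Of the other 11 marker lists, none passed the adjustment with any receptor. The next highest values of r were 0.680 for *Adrb1* and 0.597 for *Adra2c* with cortical glutamatergic neuron markers, and the lowest was -0.685 for *Adra1d* with microglial markers.

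**Figure D4:**
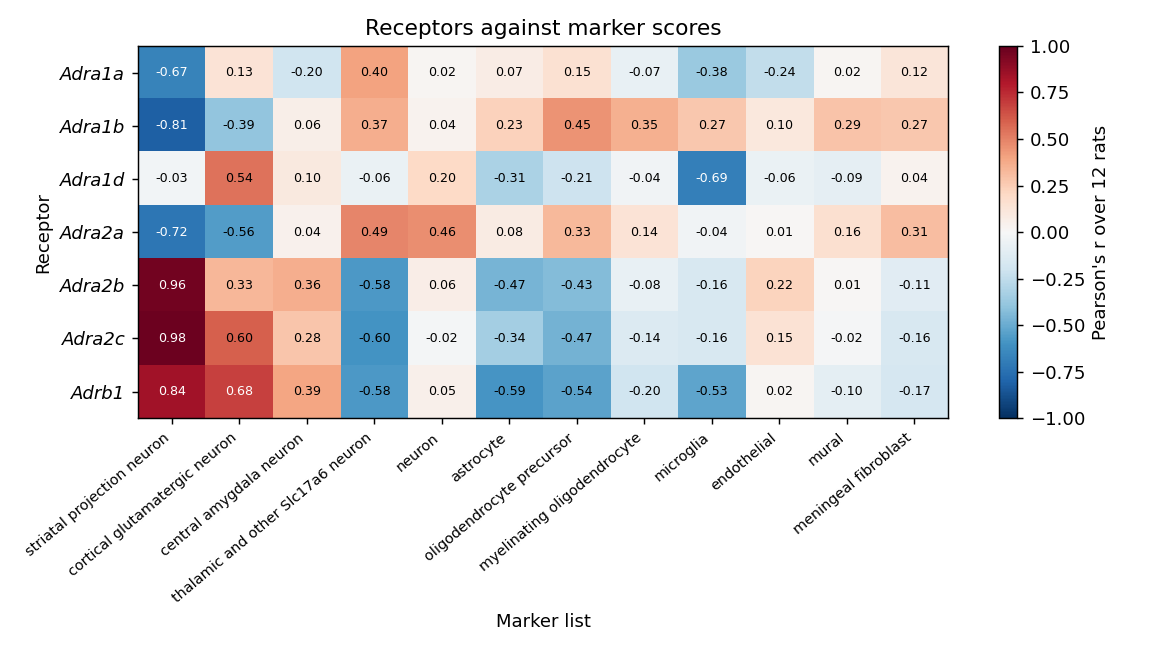
Pearson's r over 12 rats between each receptor (rows, log2 CPM) and each of 12 marker scores (columns), with red for positive and blue for negative values. The striatal column holds the values furthest from 0, from -0.813 for *Adra1b* to 0.981 for *Adra2c*.

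The edgeR fit was repeated with both the cortical and the striatal score as covariates. The CIE effect's SE shrank from 0.35 to 0.06 for *Adra2c*, from 0.63 to 0.20 for *Adra2b* and from 0.21 to 0.13 for *Adrb1*. The striatal score came from the same libraries and already correlated with these receptors, so the smaller SE is not a separate result. CIE rats 1, 2 and 4 had the highest cortical scores, so this score and CIE cannot be fully told apart. The log2 fold change of *Adra2c* became -0.14 (nominal p 0.0396, FDR 0.550 in edgeR), opposite in sign to the fit without covariates, and that of *Adrb1* became -0.11 (FDR 0.888). *Adra1d* moved from -0.05 to -0.41 (SE 0.23, nominal p 0.0957, FDR 0.676 in edgeR) and *Adra2b* from -0.10 to -0.26 (FDR 0.808). For *Adra2a* it was -0.11 (SE 0.11, FDR 0.862). Without rats 2, 4 and 10, an alternative chosen after the values were seen, 0 of 7 receptors passed 5% FDR. In that fit 1 receptor passed a nominal p of 0.05, and 1414 of all genes did. It was *Adra2a*, at -0.29 (SE 0.09, nominal p 0.00957, FDR 0.522 in edgeR).

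The genes most like each receptor were sought by Pearson's r of log2 CPM over the 12 rats after the group means were removed, among 17531 genes. The 3 most like *Adra2c* were *Ubtd2* (0.994), *Dgkb* (0.992) and *Dgat2* (0.990). Among the 3 most like *Adra2b* were *Ppp1r1b* (0.971), which belongs to the striatal list, and LOC103692719 (0.971). Among the 3 most like *Adrb1* were *Arhgap33* (0.978) and *Gria3* (0.975), which encodes a glutamate receptor subunit of excitatory synapses.

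The remaining receptors had other nearest genes. For *Adra2a* they included *Fam83h* (0.962) and LOC100910646 (0.959), for *Adra1a* they included *Mfsd4* (0.963) and *Srrm4* (0.940), for *Adra1b* they were *Tspan18* (0.946), *Sertm1* (0.918) and *Clstn2* (0.910), and for *Adra1d* they were *Col8a1* (0.932), *Ptpn3* (0.886) and *Nrcam* (0.869). These are the highest of many values over 12 rats and are given as a description.

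Of 46 other genes of noradrenaline handling and receptor signaling, 39 were tested, 0 passed 5% FDR and 3 (7.69%) had a nominal p value below 0.05, near the 8.31% of all genes. Among the 7 genes for synthesis, vesicle loading and reuptake, *Th*, which encodes the rate-limiting enzyme of catecholamine synthesis, was at 2.59 ± 1.02 CPM in CIE rats and 3.98 ± 1.16 CPM in Control rats (SD, n = 6 each). CIE was at -0.62 on the log2 scale (SE 0.26, FDR 0.550 and nominal p 0.0325 in edgeR). *Slc18a2*, the vesicular monoamine transporter, had a log2 fold change of 0.16 (nominal p 0.0649, FDR 0.634 in edgeR). Among the 7 genes for breakdown and extraneuronal uptake 0 of 5 tested passed the nominal threshold, *Maoa* having a log2 fold change of -0.07.

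Of the signaling partners, the Gq arm (7 tested), the Gs arm (2 tested) and the receptor kinases and arrestins (7 tested) had 0 genes at a nominal p value below 0.05. In the Gi and Go arm 1 of 4 tested genes passed it, *Gnai3* at -0.15 on the log2 scale (SE 0.06, FDR 0.462 and nominal p 0.0187 in edgeR). *Gnai3* was at 35.3 ± 1.38 CPM in CIE rats and 39.2 ± 2.45 CPM in Control rats (SD, n = 6 each). Of 9 RGS proteins and spinophilin, which shorten or shape G protein signals, 1 passed it, *Rgs7* at 79.1 ± 7.51 against 68.7 ± 3.33 CPM (SD, n = 6 each), 0.20 on the log2 scale (SE 0.07, FDR 0.359 and nominal p 0.00876 in edgeR). *Gnaz* was listed at 0 counts in every rat, as 7757 of the 37209 genes were. Whether the CeA lacks it was not tested.

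Of the marker lists of cell types, some had more genes at a nominal p value below 0.05 than the 8.31% of all genes, and 4 marker genes passed 5% FDR, where 0.363% of all genes did. Of the myelinating oligodendrocyte markers, 10 of 10 were lower in CIE rats at a nominal p value below 0.05 and 0 of 10 passed 5% FDR, with a median log2 fold change of -0.60 and summed CPM of 5734 to 13889 against 8811 to 16508 in Controls. Nominally lower in the CIE group were 5 of 9 tested endothelial markers (median -0.29), 5 of 9 mural markers (median -0.30), 4 of 9 meningeal fibroblast markers (median -0.43) and 3 of 10 central amygdala neuron markers (median -0.09), and 1, 1, 2 and 0 of these lists' genes passed 5% FDR. Cortical glutamatergic markers were nominally higher in 2 of 10 cases (median 1.03), and their summed CPM was 228 to 665 among CIE rats, against 212 to 332 in Controls, with rats 1, 2 and 4 highest. Astrocyte markers had 2 higher and 2 lower of 10, while neuronal and microglial markers, with 1 lower of 10 each, were near the share of all genes, and striatal (10 tested), oligodendrocyte precursor (7 tested) and thalamic (6 tested) markers had 0 at a nominal p value below 0.05. The part of these differences in the receptor values was not tested beyond the fits with marker scores.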

How the data were processed

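Poly-A RNA-Seq libraries of CeA punches from 12 rats were grouped by the treatment given in the sample labels (the titles of all 12 end alike and do not tell the groups apart), and rats are numbered as in the titles, 1 to 6 CIE and 7 to 12 Control. Nothing links rats across the groups, rats shared cages, and cage was not recorded in the labels, so an effect that follows rat order or cage cannot be told apart from CIE. The deposited values are raw counts per gene, 1 column per rat, which the authors obtained with HTSeq after BWA alignment of read pairs (build Rnor_6.0). Annotation, strand and overlap settings are not given in the sources used here. In RefSeq GRCr8, LOC108352076 overlaps *Adra1b*, and reads of the 2 cannot be told apart without strand.

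The main test was that of edgeR 4.0.16 under R 4.3.3 (TMM, filterByExpr, glmQLFit and glmQLFTest without covariates, tested on simulated data first). SE is the log2 fold change over the square root of F, and 95% intervals use the t quantile of the fit. Alternatives used DESeq2 1.42.0, limma 3.58.1 and sva 3.50.0, other normalizations and filters, marker scores as covariates, and each rat left out. The study used DESeq2 1.26. Permutation tests are two-sided, with every division of the rats into 6 and 6 for group differences (smallest p 0.00216), all orders within a group, and 100000 permutations over the 12 rats, in Python 3.11.15. Log2 CPM for correlations adds a prior count of 2 scaled to depth. Of 13 marker lists, that of noradrenergic neurons had 1 tested gene and was not correlated. Members, gene lists and tests were chosen with earlier results of these data known. Named are all receptors, list genes at a nominal p below 0.05 or near 0, and the 3 genes most like each receptor, some of which are not reported here. *Slc18a2*, *Maoa* and the marker genes given as examples, were named outside this rule after their values were seen.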

Additional observations from a re-analysis of the deposited data

Results flagged for a closer look

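Among 11 genes in 2 groups of 6 rats, 5 values lay further from the rest of their group than Dixon's 95% limit. About 1 in 20 groups would pass this limit if values were normal and independent. The flags are not independent, since several belong to Control rat 10 and *Adra2b* and *Adra2c* varied together. Their number is therefore not read as an excess. *Adra2a* was at 30.8 CPM in CIE rat 5 against 23.5 to 24.8 CPM in the other CIE rats, and at 18.9 CPM in Control rat 10 against 29.3 to 33.0 CPM in the other Controls. *Adra2b* was at 3.68 CPM in CIE rat 2 against 0.493 to 1.547 CPM, and at 4.58 CPM in Control rat 10 against 0.354 to 1.35 CPM. *Adra2c* was at 80.0 CPM in Control rat 10 against 21.0 to 35.8 CPM. Control rat 10 and CIE rat 2 also had the highest striatal marker sums, 4120 and 3715 CPM.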

How the results depend on the processing

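Under all 24 alternatives, 0 of 7 receptors passed 5% FDR, and *Adra1b* and *Adra2a* kept a negative fold change. The lowest FDR was 0.145, for *Adra2a* without Control rat 10. With limma-voom and sample quality weights the log2 fold change was 0.084 for *Adra1a*, 0.23 for *Adra1d* and 0.40 for *Adra2b*, 2 receptors (*Adra1b* and *Adra2a*) had a nominal p below 0.05, and 3596 genes did, 234 of them past 5% FDR. DESeq2 gave 274 genes past 5% FDR, against 76 in edgeR. With both cortical and striatal scores in the fit *Adra2c* was at -0.14, *Adrb1* at -0.11, *Adra1d* at -0.41 and *Adra2b* at -0.26. In that fit 1 receptor passed the nominal threshold (*Adra2c*), as did 1791 of all genes, and 45 genes passed 5% FDR. With the myelin score *Adra2b* was at 0.18, and 22 genes passed 5% FDR. Without rats 1, 2 and 4, which had the 3 highest cortical scores (an alternative chosen after the values were seen), *Adra2c* was at -0.42, *Adrb1* at -0.30, *Adra1d* at -0.51 and *Adra2b* at -1.05, 18 genes passed 5% FDR and 1157 the nominal threshold, against 1740. Without rats 2, 4 and 10, chosen likewise, 1 receptor and 1414 of all genes passed the nominal threshold, and 34 genes 5% FDR. On the log2 CPM scale the difference between group means was 0.011 for *Adra1a* and 0.079 for *Adra2b*, opposite in sign to the linear one.

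When 1 rat at a time was left out, the log2 fold change ranged from -0.14 to 0.11 for *Adra1a*, from -0.25 to 0.060 for *Adra1d*, from -0.73 to 0.73 for *Adra2b* and from -0.11 to 0.57 for *Adra2c*. Between 0 and 2 receptors passed the nominal threshold, 2 without Control rat 10 (*Adra1b* and *Adra2a*), where 2420 of all genes did. The number of genes past 5% FDR ranged from 34 to 154, and at the nominal threshold from 1347 to 2811. The cause of these shifts was not tested. With the group means removed, the 4 correlations with the striatal score still passed the adjustment. Counting error was largest for *Adra2b* and *Adra1d*, 18.6% and 10.6% at the lowest count, but was below their spread within groups of 102% and 33.9%.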
